A study of Mus musculus with 26 samples.

Results

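The transcripts of 10 genes of extracellular matrix turnover were followed across brown preadipocyte lines that differ in the insulin receptor (IR) they carry. The set held 7 matrix metalloproteinases (Mmp2, Mmp3, Mmp8, Mmp10, Mmp11, Mmp13 and Mmp14) and 3 tissue inhibitors of metalloproteinases (Timp1, Timp2 and Timp3). They were taken by gene symbol from the 52962 genes of the count table. That rule uses no measured value, but the genes were chosen with earlier results of these data known. All lines came from preadipocytes of the brown fat of newborn mice homozygous for loxP-flanked IR and IGF1R genes, immortalized with a viral T-antigen and treated with Cre, so that every group is described as lacking both mouse receptors. DKO cells (double knockout) carried no receptor. The other lines were the same DKO cells stably transduced with a retrovirus encoding a FLAG-tagged human receptor: the full-length form (IR), a form with a point mutation that makes the kinase dead (K1030R), a form without the C-terminus (∆CT), or a form whose intracellular part was reduced to the juxtamembrane segment (JMO). Cells were serum starved for 6 h and collected either without insulin (basal) or after 100 nM insulin for 15 min. There were 3 libraries per group for the 5 basal groups and for IR, K1030R and JMO cells with insulin, 2 for ∆CT cells with insulin, and no insulin group for DKO cells (26 libraries in 9 groups). Each receptor was represented by 1 transduced line, so a receptor and its line cannot be told apart, and nothing in the labels says that the libraries of a group came from separate cultures, so p-values measure the spread between these libraries only.

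Matrix metalloproteinases are zinc endopeptidases, mostly secreted as inactive proenzymes, that cleave collagens, proteoglycans and other matrix proteins. Collagenases (Mmp8, Mmp13) cut fibrillar collagen, stromelysins (Mmp3, Mmp10) have broad matrix substrates and activate other proenzymes, gelatinases (Mmp2) cut denatured and basement membrane collagen, and membrane-bound Mmp14 cuts collagen at the cell surface and activates the Mmp2 proenzyme. TIMPs bind the active site of these enzymes and block them; Timp2 also takes part in the docking of the Mmp2 proenzyme to Mmp14, and Timp3 is held in the matrix. In adipose tissue the stromal and precursor cells are a main source of these proteins, and the fibrillar matrix around the cells is remodelled as fat pads form and expand.

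Library totals ranged from 17228786 to 24694545 counts. Levels are given as scaled CPM, the usual counts relative to library size, here after trimmed-mean scaling. As a check of the labels, Insr was at 23.8 ± 1.32 scaled CPM in DKO cells and at 67.6 ± 1.69, 71.1 ± 5.23, 78.3 ± 3.61 and 70.9 ± 2.82 in basal IR, K1030R, ∆CT and JMO cells (SD, n = 3). Igf1r was at 27.0 ± 2.06 in DKO cells and its group means were 30.1 to 35.1 in the other basal lines. Both genes were thus detected in the cells labelled as lacking them. Counts per gene do not separate the exons, so they do not check the deletion, and the source of these reads was not tested. The summed level of 9 preadipocyte and fibroblast markers was 5042 to 5411 in DKO and 5283 to 5327 in basal JMO cells, against 8232 to 11413 in the other basal lines. That of 6 mature brown adipocyte markers was 2.50 to 2.60 in DKO and 4.28 to 4.87 in JMO cells against 0.597 to 2.01, with Lep listed at 0 throughout, and that of 5 endothelial markers was 7.05 to 17.5 over all libraries. The adipocyte sum in DKO cells was almost all Fabp4 (2.48 ± 0.0865), with Adipoq, Ucp1 and Cidea at 0 there. Most of the preadipocyte sum was Col1a1 (group means 3261 to 7246) and Col3a1 (719 to 2880), and the members did not move together: in IR cells 5 of the 8 tested were called higher than in DKO cells, whereas Ly6a fell (44.8 ± 3.70 to 4.50 ± 1.13). Pdgfra, Pdgfrb and Thy1 were detected in every basal group, Pparg was at 4.56 ± 0.243 in DKO and 2.75 ± 0.139 in IR cells, and Ebf2, a marker of brown preadipocytes, did not exceed a mean of 0.287. The part of these differences in the results below was not tested. In these bulk samples, fewer cells making a transcript and less transcript per cell cannot be told apart.

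Of the 10 genes, 4 lie in a cluster of 10 metalloproteinase genes that spans 427.1 kb of chromosome 9 (GRCm38). Mmp13 (chr9:7272514-7283331), Mmp3 (chr9:7445822-7455975), Mmp10 (chr9:7502352-7510240) and Mmp8 (chr9:7558456-7568485) are all on the plus strand and occupy the first 296.0 kb. The others are dispersed. Mmp2 is at chr8:92827291-92853420, Mmp11 at chr10:75923222-75936496, Mmp14 at chr14:54431612-54445364, Timp1 at chrX:20870166-20874735, Timp2 at chr11:118301069-118355740 and Timp3 at chr10:86300372-86349506. Timp1 and Timp3 are on the plus strand and overlap synapsin genes on the minus strand (Syn1 and Syn3), whose counts did not exceed 45 and 22 in any library. Mmp11 overlaps Chchd10 on the other strand (at most 11 counts), and Timp2 overlaps Cep295nl on the same strand (at most 119 counts).

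The promoters of the clustered genes are shown because these 4 genes had the lowest levels relative to DKO cells in IR, K1030R and ∆CT cells. RefSeq windows of 250 bases before to 50 after the annotated start were at hand for 9 of the 10 genes, all but Mmp2. The letters TGANTCA, the site known to bind AP-1 dimers of FOS and JUN proteins (the same on both strands), were found in the windows of Mmp13, Mmp3 and Mmp10 and in none of the other 6, against 7.81% of all 32851 windows. TATAAA on either strand was found in 4 of the 9 windows, against 13.6% of all windows, and both motifs together in the same 3 windows and in 1.54% of all. Both motifs also stood together in windows of neighbouring cluster genes: 1 of 2 windows of Mmp12, 1 of 2 of Mmp7, and those of Mmp1a, Mmp1b and Mmp20, but not that of Mmp27. The letters are therefore not particular to the genes that were lower. A match describes the letters and is not evidence of binding. The last 100 bases before the annotated start (RefSeq, GRCm38.p6, plus strand, 5′ to 3′) follow, with TGANTCA and TATAAA in capitals where they lie whole within these bases. The AP-1 letters begin 35 bases before the start of Mmp13, 46 before that of Mmp3 and 63 before that of Mmp10, and Mmp8 is printed as the clustered gene whose window has none.
Mmp13 (chr9:7272414-7272513): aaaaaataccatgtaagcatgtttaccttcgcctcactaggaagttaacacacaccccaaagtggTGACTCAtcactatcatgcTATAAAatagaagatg
Mmp3 (chr9:7445722-7445821): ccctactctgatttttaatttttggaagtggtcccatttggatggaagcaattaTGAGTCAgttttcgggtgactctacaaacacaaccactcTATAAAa
Mmp10 (chr9:7502242-7502341): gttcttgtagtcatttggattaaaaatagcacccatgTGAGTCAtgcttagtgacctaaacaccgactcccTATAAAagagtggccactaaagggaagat
Mmp8 (chr9:7558329-7558428): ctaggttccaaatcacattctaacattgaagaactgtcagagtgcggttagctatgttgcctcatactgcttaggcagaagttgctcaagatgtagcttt

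To rank the genes against each other, levels were divided by merged exon length. In basal DKO cells the order was Timp2 (186 ± 1.95 scaled CPM per kb, SD, n = 3), Timp1 (104 ± 5.28), Mmp14 (63.8 ± 1.52), Timp3 (46.9 ± 1.14), Mmp11 (19.6 ± 0.373), Mmp2 (17.2 ± 0.591), Mmp3 (5.0 ± 0.462), Mmp13 (2.54 ± 0.303), Mmp10 (0.478 ± 0.0445) and Mmp8 (0.193 ± 0.112). The 3 inhibitors and the membrane-bound enzyme therefore led, and the clustered secreted enzymes came last. In basal IR cells Mmp14 (84.1 ± 2.97 per kb) stood above Timp1 (57.5 ± 1.61), the reverse of their order in DKO cells. All levels below are scaled CPM without division by length, so they compare lines within a gene.

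**Figure D1:**
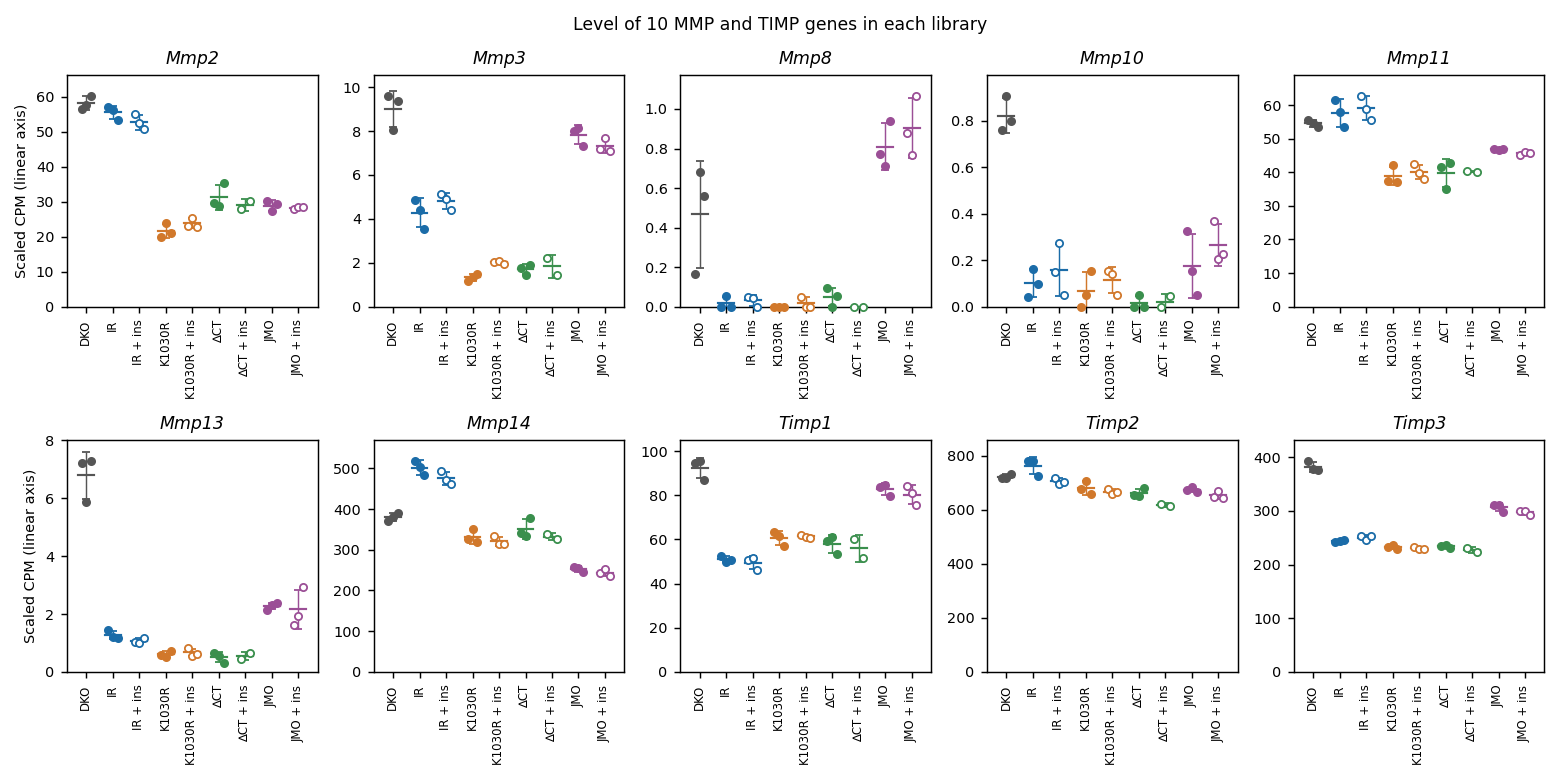
Scaled CPM (linear axes from 0) of each gene in each library, by group along the horizontal axis. Filled points are basal and open points insulin-treated libraries, horizontal bars are group means and whiskers SD (n = 3, or 2 for ∆CT with insulin). Mmp3 and Mmp8 are high in DKO and JMO cells, Mmp13 and Mmp10 are highest in DKO cells, and Timp2 stays between 613 and 781 in all libraries.

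The first question was how each receptor, without added insulin, altered these genes relative to receptor-null cells. A gene was called changed where edgeR's quasi-likelihood test against a minimum fold of 1.5 gave an adjusted p below 0.05 over the 15402 genes that passed the filter on low counts. Of the 10 genes 9 passed that filter. Mmp10 did not, and Mmp8 passed only through the DKO and JMO libraries, so both are described by their counts and left out of the numbers that follow. Against DKO cells, 3 of the other 8 fell in IR cells (Mmp3, Mmp13, Timp1), 4 in K1030R cells and 4 in ∆CT cells (Mmp2, Mmp3, Mmp13, Timp3 in both), and 2 in JMO cells (Mmp2, Mmp13). None rose in any line. Of all genes tested, 3.6% were called higher and 3.29% lower in IR cells, 2.04% and 3.25% in K1030R cells, 2.38% and 3.91% in ∆CT cells, and 1.38% and 0.734% in JMO cells. The median log2 fold change of the 8 genes was −0.36, −0.66, −0.69 and −0.27 in the same order of lines, and that of all genes tested was 0.01 in each. The 4 comparisons share the same 3 DKO libraries, so they are not independent of each other. Because the genes were chosen with earlier results of these data known, their counts beside the shares of all genes are a description.

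**Figure D2:**
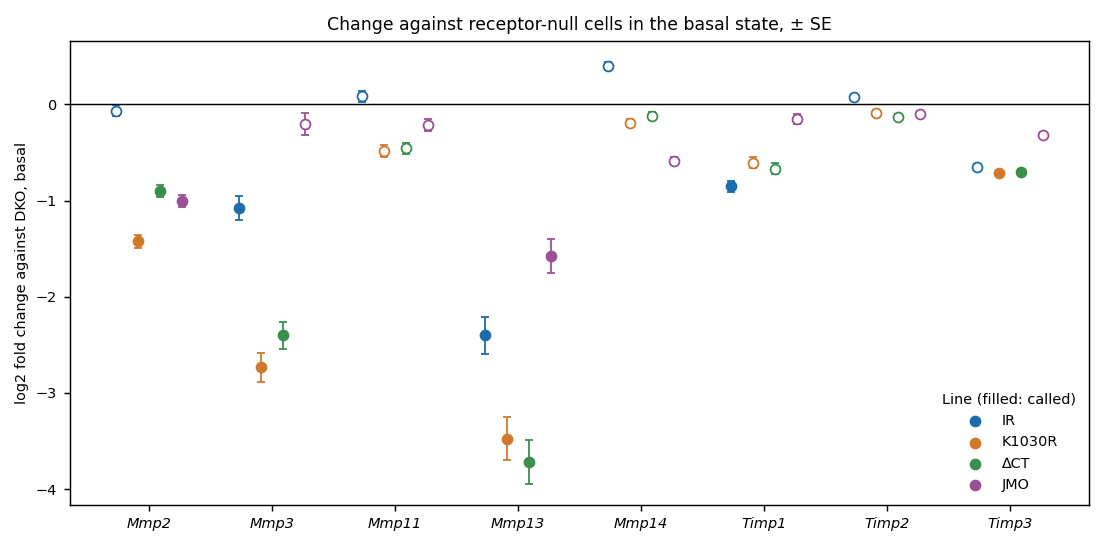
log2 fold change against DKO cells in the basal state (vertical axis, error bars SE) for 8 genes in 4 lines (3 libraries per line). Filled points passed the minimum-fold test and open points did not. Mmp13 is lowest throughout, Mmp3 is near 0 only in JMO cells, Mmp2 is near 0 only in IR cells, and Mmp8 and Mmp10 are left out because their counts were too few for a fitted fold.

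Mmp13, the main interstitial collagenase of the mouse, fell in every line. In DKO cells it was at 7.22, 5.85 and 7.28 CPM and in JMO cells at 2.15, 2.29 and 2.38. It was at 1.45, 1.19 and 1.18 in IR cells, 0.592, 0.503 and 0.724 in K1030R cells, and 0.663, 0.549 and 0.310 in ∆CT cells. DKO cells were highest and JMO cells next, with no overlap of either with any other group, and K1030R and ∆CT cells overlapped each other at the bottom. Against DKO cells the log2 fold change was −2.40 ± 0.19 (SE) in IR cells (edgeR adjusted p = 1.21e-12), −3.48 ± 0.22 in K1030R cells (5.08e-15), −3.72 ± 0.23 in ∆CT cells (9.14e-16) and −1.58 ± 0.18 in JMO cells (9.07e-09). The level left in K1030R and ∆CT cells was 8.9% and 7.5% of that in DKO cells, on raw counts of 6 to 14 per library. Of 7 markers of osteoblasts and chondrocytes, cells known to express Mmp13, 2 were tested, and they differed in direction. Sox9 made up most of their summed level (28.0 to 30.9 CPM in DKO and 17.6 to 27.1 in the other basal lines), with a mean of 28.3 ± 1.47 in DKO and 18.2 ± 1.37 in IR cells, and was called in none of the 4 lines. Col2a1 was at 0.247 ± 0.0339 in DKO and 0.650 ± 0.205 in IR cells and was called higher in K1030R, ∆CT and JMO cells. Acan was listed at 0 throughout, and the part of such cells was not tested.

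Mmp3, stromelysin 1, fell in IR, K1030R and ∆CT cells. It was at 9.61, 8.06 and 9.36 CPM in DKO cells and at 8.0, 8.16 and 7.33 in JMO cells. IR cells had 4.86, 4.40 and 3.55, K1030R cells 1.18, 1.36 and 1.5, and ∆CT cells 1.75, 1.45 and 1.91. DKO and JMO libraries overlapped, IR libraries lay clear of all others in between, and K1030R and ∆CT libraries overlapped at the bottom. The log2 fold change against DKO cells was −1.07 ± 0.12 in IR (edgeR adjusted p = 4.95e-09), −2.73 ± 0.15 in K1030R (9.12e-17) and −2.40 ± 0.14 in ∆CT cells (5.01e-16), and −0.21 ± 0.12 in JMO cells (0.177). Mmp3 and Mmp10 transcripts share 202 stretches of 31 bases, and their fractional estimates added to whole numbers in all 26 libraries (within 0.001), so reads were split between them. With both counts added, an alternative chosen after the data were seen, the changes were −1.17, −2.79 and −2.51, and in JMO cells −0.30 (edgeR adjusted p = 0.0397 with no minimum fold).

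Mmp10, stromelysin 2, was rare, and its rounded counts were 14, 16 and 20 in DKO cells. The 3 libraries summed to 6 counts in IR cells, 4 in K1030R cells, 1 in ∆CT cells and 12 in JMO cells. Each DKO library was above every library of the other lines. Per scaled library size the sum was 8.48 times lower in IR than in DKO cells (95% exact counting interval 3.64 to 24.2), 11.5 times lower in K1030R cells (4.22 to 43.8), 49.6 times lower in ∆CT cells (8.5 to 1996) and 4.40 times lower in JMO cells (2.31 to 9.08). These intervals cover counting error only. With no filter on low counts, edgeR's minimum-fold test called Mmp10 lower than in DKO cells in all 4 lines, with an adjusted p of 0.0396 in JMO cells.

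Mmp8, the collagenase known from neutrophils, had 3, 12 and 14 counts in DKO cells and 19, 14 and 19 in JMO cells. It had 0, 1 and 0 counts in IR cells, 0 in each K1030R library, and 2, 0 and 1 in ∆CT cells. In scaled CPM the JMO libraries (0.714 to 0.941) lay above the DKO libraries (0.163 to 0.681), and both lay above the other basal libraries, which did not exceed 0.0948. The sum was 29.5 times lower in IR than in DKO cells (exact counting interval 4.90 to 1206) and 9.58 times lower in ∆CT cells (2.97 to 49.2). In K1030R cells the sum was 8.89-fold lower if 3 counts over the group are taken as the limit that a count of 0 allows. That value leaves out the counting error of the DKO sum, and the lower end of the exact counting interval was 6.78. These values are a description with no test, because the filter kept the gene through the groups where it was high. In JMO cells the sum was 1.7 times that of DKO cells (1.06 to 2.77, counting error only; edgeR adjusted p = 0.152).

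The summed level of 7 neutrophil markers moved with Mmp8. It was 2.10 to 3.04 CPM in DKO and 3.82 to 4.75 in JMO cells, against 0.0543 to 0.395 in IR, 0.362 to 0.503 in K1030R and 0.449 to 0.724 in basal ∆CT cells. Almost all of it was Camp, the cathelicidin gene (2.55 ± 0.404 CPM in DKO, 4.30 ± 0.470 in JMO and 0.263 ± 0.183 in IR cells). In basal cells of these 3 lines S100a9 and Ngp were at 0, the means of S100a8 and Elane did not exceed 0.0305 and those of Mpo and Ltf did not exceed 0.0495. The pan-leukocyte Ptprc was at 0.162 ± 0.139 in DKO cells. The sum of 7 macrophage and leukocyte markers was 29.8 to 33.0 in DKO and 25.8 to 27.5 in JMO cells against 17.4 to 19.4 in the other basal lines, with Adgre1 listed at 0 throughout. In DKO and IR cells most of this sum was Cd14 (15.8 ± 0.648 and 9.58 ± 0.792) and Lyz2 (11.5 ± 0.824 and 6.81 ± 0.840). Csf1r was at 0.830 ± 0.222 and Itgam at 0.165 ± 0.0594 in DKO cells. The part of such cells in these differences was not tested.

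Mmp12 (macrophage elastase), which lies between Mmp13 and Mmp3 in the cluster, gave 1.17 ± 0.222 CPM for DKO cells and 1.01 ± 0.415 for JMO cells. It gave 0.914 ± 0.0714 for IR cells, 1.15 ± 0.291 for K1030R cells and 0.753 ± 0.351 for ∆CT cells. It was called in none of the comparisons with DKO cells (log2 fold change −0.33 ± 0.29, 0.00 ± 0.26, −0.60 ± 0.30 and −0.21 ± 0.28). Mmp27 had 72 counts, Mmp20 14, Mmp7 3, and Mmp1a and Mmp1b 1 each over all 26 libraries.

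**Figure D3:**
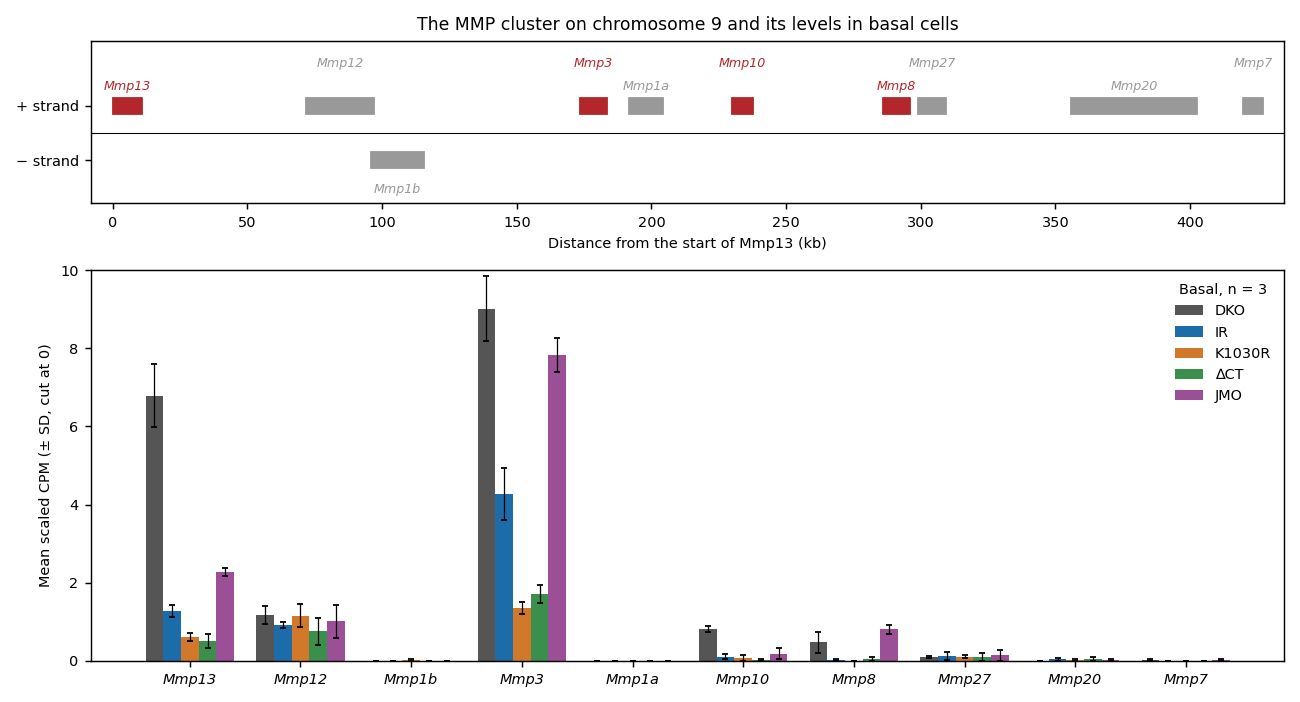
Upper panel, the 10 metalloproteinase genes of the chromosome 9 cluster by distance from the start of Mmp13 in kb, on each strand, with the 4 genes described here in red. Lower panel, mean scaled CPM (linear axis, bars from 0, whiskers SD, n = 3) of each gene in basal cells of the 5 lines. Mmp3 has the highest mean in every line, and Mmp13 is above Mmp12 in DKO, IR and JMO cells and below it in K1030R (0.606 against 1.15 CPM) and ∆CT cells (0.508 against 0.753).

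Mmp2, the gelatinase that degrades denatured and type IV collagen, followed another order. It was at 56.5, 57.5 and 60.3 CPM in DKO and 57.2, 56.1 and 53.4 in IR cells. K1030R cells had 19.9, 23.9 and 20.9, ∆CT cells 29.8, 28.7 and 35.3, and JMO cells 30.1, 27.2 and 29.3. DKO and IR libraries overlapped and lay above all others, and ∆CT and JMO libraries overlapped. The log2 fold change against DKO cells was −0.07 ± 0.06 in IR (edgeR adjusted p = 0.357), −1.43 ± 0.06 in K1030R cells (3.06e-19), −0.90 ± 0.06 in ∆CT cells (1.58e-14) and −1.01 ± 0.06 in JMO cells (3.10e-15). Mmp2 was thus called in each mutant line and not with the full-length receptor; the direct comparisons of K1030R and ∆CT with IR cells are given below.

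Mmp14, the membrane-type enzyme that activates the Mmp2 proenzyme, did not pass the 1.5-fold test in any line. It was highest in IR cells (501 ± 17.7 CPM, SD, n = 3) and lowest in JMO cells (253 ± 7.19). DKO cells (380 ± 9.04), ∆CT cells (351 ± 24.0) and K1030R cells (332 ± 17.5) lay in between, each overlapping the next. IR libraries lay above and JMO libraries below all others. With no minimum fold the log2 difference from DKO cells was 0.40 ± 0.04 in IR (edgeR adjusted p = 7.82e-10) and −0.59 ± 0.04 in JMO cells (5.27e-13). Mmp11, stromelysin 3, a secreted enzyme activated inside the cell, was called in none. Its mean was 57.7 ± 4.13 CPM for IR cells and 54.6 ± 1.04 for DKO cells, whose libraries overlapped, then 46.9 ± 0.169 for JMO cells, and 39.7 ± 4.13 for ∆CT and 38.9 ± 2.78 for K1030R cells, which also overlapped.

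Among the inhibitors, Timp1, the soluble TIMP that blocks most secreted metalloproteinases, fell in IR cells. It was at 94.6, 95.6 and 87.0 CPM in DKO and 83.7, 84.8 and 79.6 in JMO cells. It was at 52.6, 49.9 and 50.7 in IR, 63.3, 61.6 and 57.0 in K1030R and 59.3, 61.0 and 53.5 in ∆CT cells. The groups separated into DKO, then JMO, then K1030R with ∆CT, then IR cells, with overlap only between K1030R and ∆CT. The log2 fold change against DKO cells was −0.85 ± 0.06 in IR (edgeR adjusted p = 2.69e-14), and the values −0.61 ± 0.06 in K1030R and −0.67 ± 0.05 in ∆CT cells did not pass the minimum-fold test (adjusted p = 1 and 0.247).

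Timp3, the matrix-bound inhibitor that also blocks ADAM proteases, fell in K1030R and ∆CT cells. It was at 393, 378 and 376 CPM in DKO and 312, 310 and 298 in JMO cells. It was at 242, 244 and 246 in IR, 233, 236 and 229 in K1030R and 235, 237 and 230 in ∆CT cells. DKO and JMO cells each stood apart, and all libraries of the last 3 lines lay between 229 and 246. The log2 fold change against DKO cells was −0.72 ± 0.03 in K1030R (edgeR adjusted p = 1.03e-20) and −0.71 ± 0.03 in ∆CT cells (1.34e-20). IR cells, at −0.65 ± 0.03, were at the edge of the minimum-fold test (adjusted p = 0.059) and passed it with RLE scaling (0.0198), with a filter of 10 counts in 4 libraries (0.0231), with the replicate block (0.0462) and without DKO replicate 3 (0.0410). It missed the test with no filter (0.341), with limma (0.138), with DESeq2 (0.108), with only the groups compared (0.0805) and without any 1 of the other 5 libraries (0.0630 to 0.310). Its reads gave fractional counts in all 26 libraries, as did those of Mmp14, so part of them was shared with other transcripts.

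Timp2, which both inhibits these enzymes and docks the Mmp2 proenzyme to Mmp14, was the most abundant gene per length in DKO cells. Its mean was 763 ± 31.6 CPM for IR cells and 723 ± 7.58 for DKO cells. It was 681 for K1030R cells, 674 ± 8.82 for JMO cells and 662 ± 16.7 for ∆CT cells, and the libraries of these 3 lines overlapped. It was called in none of the comparisons with DKO cells, and its log2 fold change ranged from −0.13 to 0.08.

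The next question was what the receptor's intracellular part and its kinase added. The 3 lines whose receptor keeps all or most of the intracellular domain (IR, K1030R, ∆CT) were averaged and set against JMO cells. That average was lower in 2 of the 8 genes and higher in none, while 3.3% of all genes were called lower and 1.25% higher. The 2 genes were Mmp3 (log2 fold change −1.86 ± 0.11, edgeR adjusted p = 1.08e-16) and Mmp13 (−1.62 ± 0.18, 3.15e-09). The difference was smaller for the full-length receptor alone. JMO cells stood above IR cells by 0.87 for Mmp3 and 0.82 for Mmp13 on the log2 scale (edgeR adjusted p = 5.23e-07 and 0.00198). Mmp14 was at 0.62 ± 0.04 (4.57e-16) and missed the 1.5-fold test (adjusted p = 0.910). Mmp8 had 52 counts in basal JMO cells, 50.1 times as many per scaled library size as in IR cells (exact counting interval 8.61 to 2018) and 16.3 times as many as in ∆CT cells (5.27 to 81.5). Mmp10 was 1.93 times lower in IR than in JMO cells (0.670 to 6.26), 2.61 times lower in K1030R cells (0.792 to 11.1) and 11.3 times lower in ∆CT cells (1.67 to 482), so only the last interval lay clear of no difference. With no filter on low counts the 3 lines together gave a log2 fold change of −1.73 for Mmp10 against JMO cells, with an edgeR adjusted p of 0.0442 with no minimum fold and 0.414 with it. In insulin-treated libraries of the same lines the values were −1.48 for Mmp3 (edgeR adjusted p = 1.15e-13) and −1.52 for Mmp13 (3.79e-08), and both were called.

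Compared directly with IR cells, K1030R cells were lower in Mmp2 (log2 fold change −1.36 ± 0.06, edgeR adjusted p = 2.04e-17) and Mmp3 (−1.66 ± 0.16, 1.14e-09). Both were called, among 0.857% of all genes called lower and 0.182% higher. In ∆CT cells the same 2 genes were called lower than in IR cells, with log2 fold changes of −0.83 ± 0.06 for Mmp2 (edgeR adjusted p = 4.67e-12) and −1.33 ± 0.15 for Mmp3 (4.69e-08), among 0.675% called lower and 0.0325% higher. Mmp13 was lower in both as well (−1.08 ± 0.27, edgeR adjusted p = 0.00229, and −1.32 ± 0.28, 0.000401) without passing the minimum fold. Mmp14 (−0.59 ± 0.04 and −0.52 ± 0.04) and Mmp11 (−0.57 ± 0.06 and −0.54 ± 0.06) had lower values that did not pass the minimum-fold test, and Timp1 had differences of 0.24 ± 0.06 and 0.18 ± 0.06. The calls in ∆CT cells were the least firm. None of the 8 genes was called by DESeq2 or when only the 2 groups compared were fitted. Mmp2 lost its call without ∆CT replicate 1 or without ∆CT replicate 2. In insulin-treated libraries the differences from IR cells were −1.15 and −1.24 for Mmp2 and Mmp3 in K1030R and −0.85 and −1.40 in ∆CT cells.

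Apart from Mmp8, whose counts in IR, K1030R and ∆CT cells were too few to test, 8 genes were tested for 15 min of insulin. None passed in any line by edgeR with no minimum fold, or by the minimum-fold tests of edgeR, DESeq2 or limma. Under the minimum-fold test 0.221% of all genes were called for IR cells, 0% for K1030R cells, 0.214% for ∆CT cells and 0.039% for JMO cells, and with no minimum fold 1.87%, 0.156%, 1.01% and 0.364%. At an unadjusted p below 0.05 there was 1 of these 8 genes in each of IR, K1030R and ∆CT cells and 0 in JMO cells. The share of all genes at that unadjusted threshold was not computed, so these counts are a description. The genes were Timp2 in IR (log2 difference −0.11 ± 0.03, edgeR adjusted p = 0.0508) and ∆CT cells (−0.10 ± 0.03, 0.267), and Mmp3 in K1030R cells (0.59 ± 0.18, 0.437). Mmp3 read 1.18, 1.36 and 1.5 CPM in basal and 2.05, 2.10 and 1.95 in insulin-treated K1030R cells, so these groups did not overlap although the test was not passed. None of these 8 genes passed the interaction test of the insulin effect in K1030R, ∆CT or JMO cells against that in IR cells. The lowest edgeR adjusted p was 0.577. Of the 15402 genes tested only 57, 1 and 43 passed in the same order, so 0 of 8 says little about these genes. Mmp8 had 1, 1 and 0 counts in IR cells with insulin, 1, 0 and 0 in K1030R, 0 and 0 in ∆CT, and 19, 15 and 19 in JMO cells.

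**Figure D4:**
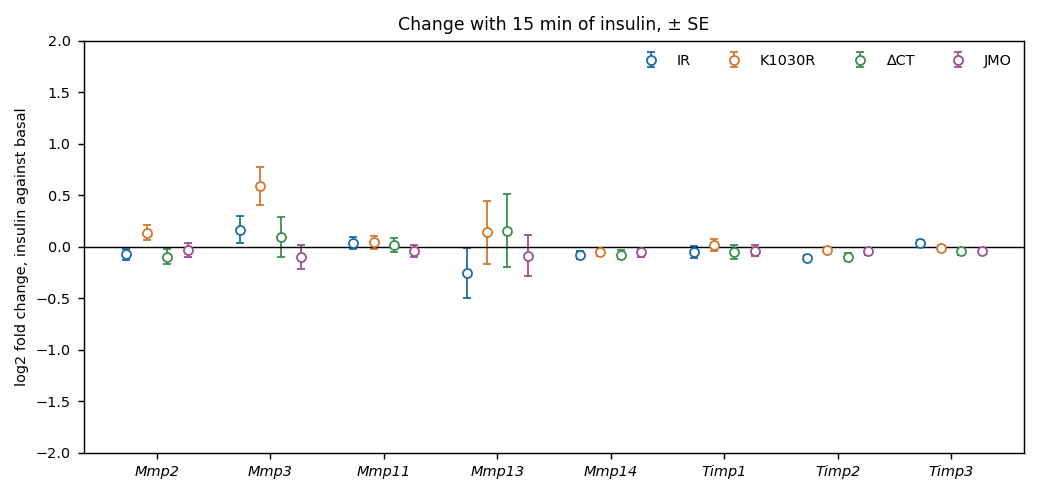
log2 fold change of insulin-treated against basal cells (vertical axis, error bars SE) for 8 genes in 4 lines (3 libraries per group, 2 for ∆CT with insulin). All points lie between −0.25 and 0.59 and none passed the test, and Mmp8 and Mmp10 are left out because of low counts.

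Other genes of pericellular proteolysis were read from 5 lists. Against DKO cells, the shares of all genes called higher and lower were 3.6% and 3.29% in IR and 2.04% and 3.25% in K1030R cells. They were 2.38% and 3.91% in ∆CT and 1.38% and 0.734% in JMO cells. These shares stand beside the counts of every list below. The lists are short, and their counts were not tested against the shares. Of 17 further MMP and TIMP genes 6 passed the filter, with 1 called higher in each line against DKO cells and 1 lower in K1030R cells (median log2 fold change in IR cells −0.24, against 0.01 over all genes). Mmp16, a membrane-type enzyme like Mmp14, was at 11.1 ± 1.69 CPM in DKO and 41.7 ± 3.55 in IR cells (1.89 ± 0.09, edgeR adjusted p = 2.05e-15). It also rose in K1030R (1.17 ± 0.10) and ∆CT cells (1.35 ± 0.10) and was at 0.70 ± 0.10 in JMO cells, where the gene called was Mmp15 (1.73 ± 0.28), another membrane-type enzyme. Mmp19 was the gene called lower in K1030R cells (−0.76 ± 0.04), with 126 ± 3.64 CPM in DKO and 74.5 ± 4.74 in K1030R cells. It did not pass the minimum-fold test in IR (81.0 ± 0.819 CPM) or ∆CT cells (82.1 ± 1.29), and JMO cells had 140 ± 5.53.

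Of 22 activators and cell-surface regulators 16 were tested, with 3 higher and 2 lower in IR, 1 and 2 in K1030R, 2 and 2 in ∆CT, and 1 and 0 in JMO cells. Plaur, the urokinase receptor that concentrates plasmin formation at the cell surface, fell by 1.38 on the log2 scale in IR cells, and Thbs2, a matricellular protein that clears Mmp2 through endocytosis, fell by 1.02. Pcsk6, a proprotein convertase, rose in every line (1.90 ± 0.21 in IR and 2.58 ± 0.20 in JMO cells), and Cav1, a caveolar coat protein, rose by 0.87 ± 0.03 in IR and was at 0.01 ± 0.03 in JMO cells. Of 9 serpins 6 were tested, with 1 higher and 2 lower in IR, 0 and 1 in K1030R, 1 and 1 in ∆CT, and 0 and 1 in JMO cells. Serpina3n, an acute-phase serine protease inhibitor, fell by 4.35 in IR and 1.14 in JMO cells on the log2 scale, and Serpinh1, the collagen chaperone HSP47, rose by 0.73 ± 0.04 in IR cells.

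All 10 ADAM proteases listed were tested, with 3 higher in IR cells, 2 in each of K1030R, ∆CT and JMO cells, and 0 lower in any. Adam19, a membrane-bound sheddase, went from 7.42 ± 0.597 CPM in DKO to 32.6 ± 0.755 in IR cells (log2 fold change 2.13 ± 0.07, edgeR adjusted p = 4.91e-23) and was at 10.1 ± 0.870 in JMO cells. Adam23, which lacks protease activity and binds integrins, rose in IR (1.08 ± 0.05) and JMO cells (1.05 ± 0.05). Of 19 ADAMTS proteases 13 were tested, with 3 higher and 2 lower in IR, 2 and 1 in K1030R, 3 and 1 in ∆CT, and 0 and 0 in JMO cells. Adamts5, an aggrecan-cleaving enzyme, went from 163 ± 5.69 to 422 ± 11.8 CPM in IR cells, and Adamts17 from 0.445 ± 0.144 to 4.59 ± 0.386. Adamts7 fell by 1.39 and Adamts14, a procollagen N-propeptidase, by 1.18 on the log2 scale. The median log2 fold change in IR cells was 0.30 for the ADAM list and 0.45 for the ADAMTS list, beside −0.36 for the 8 metalloproteinases and TIMPs, and the difference between these lists was not tested.

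The genes with the pattern most like each member, by Pearson correlation of log2 group means over the 9 groups, were named by a fixed rule. The points share lines and state, and the values are descriptions. For Mmp3 the nearest 5 were Gbp6 (r = 0.992), Gm43302 (0.990), Prickle1 (0.988), Sp100 (0.987) and Cmpk2 (0.986), of which Gbp6, Sp100 and Cmpk2 are known as interferon-inducible genes. The nearest was Gm7609 for Mmp13 (0.993), Syt17 for Mmp8 (0.995), Gm15708 for Mmp2 (0.984), Myo7a for Mmp11 (0.982) and Mtdh for Mmp14 (0.994). For the inhibitors it was Fxyd5 for Timp1 (0.994), Ski for Timp2 (0.970) and Gm8995 for Timp3 (0.995). Within the set, the closest pair was Mmp13 and Timp3 (0.975), followed by Mmp2 and Mmp11 (0.913) and by Mmp3 and Mmp13 (0.909).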

How the data were processed

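RNA was sequenced from 26 libraries as single-end stranded reads after oligo-dT selection, per the labels and the study's methods. The authors trimmed reads with fastp, estimated transcript abundance with kallisto on the Ensembl transcriptome and summed it to genes, and the deposited table holds expected counts per gene. Whether strand was used in counting is not given in the sources used here. The expected counts were rounded to whole numbers, and the low-count filter kept genes whose CPM exceeded 0.5 in 4 or more libraries (15402 of 52962). All 26 libraries were fitted together in edgeR 4.0.16 (R 4.3.3) with trimmed-mean scaling, 1 mean per group and robust quasi-likelihood. Calls used a minimum fold of 1.5 and Benjamini-Hochberg adjusted p below 0.05 over all genes tested, and adjusted p-values printed for single genes are without a minimum fold unless said otherwise. Interactions used the same fit. Each SE is the size of the log2 fold change divided by the square root of its F statistic. On data simulated for the IR against DKO comparison with 15402 genes, 72 of 100 genes changed 2-fold and 96 of 100 changed 4-fold were recovered with 0 false calls. Replicates differed beyond counting noise (chi-square per degree of freedom 2.83 to 22.5 over 25 pairs), so none was the same library read again. This cannot show whether they came from separate cultures or separate RNA. Rare genes are given as counts with exact 95% intervals. Alternatives used DESeq2 1.42.0 and limma 3.58.1. Named genes were all members, up to 2 highest and 2 lowest called genes of each list in IR against DKO cells, Insr, and the most alike genes. A gene that this rule names is not reported here. Markers, Mmp12, Mmp15, Mmp19 and the other genes of its cluster, and genes named beside these were described for context after their values were seen. The members and lists were chosen with earlier results of these data known. Gene positions are from GENCODE M21 (GRCm38).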

Additional observations from a re-analysis of the deposited data

How the results depend on the processing

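The counts here are over the 9 genes tested, Mmp8 included. The filter kept Mmp8 through the groups where it was high, so its calls are a description with no test. In the main setting Mmp8 was among the genes called for IR, K1030R and ∆CT against DKO cells. It was also among those called for these 3 lines together against JMO cells. Without Mmp8 the main counts over 8 genes were 3, 4 and 4 for IR, K1030R and ∆CT against DKO cells. For these 3 lines together against JMO cells the count was 2. Dropping the minimum fold raised the number of genes called, because smaller differences then count. Against DKO cells it was 7 in IR and JMO and 9 in K1030R and ∆CT cells. It was 7 for K1030R against IR, for ∆CT against IR, and for the mean of IR, K1030R and ∆CT against JMO. Of the 15402 genes tested, 7665, 6404, 7135 and 5276 were then called in IR, K1030R, ∆CT and JMO cells against DKO cells. In the other 3 comparisons 4650, 4013 and 6744 were called, so calls were common at this setting. Under the other settings, the count moved by over 1.5 times only for ∆CT against IR cells, from 2 to 0 with DESeq2, with only the groups compared in the fit and with adjusted p below 0.001; leaving out libraries gave 1 to 2 there. Leaving out libraries gave 4 to 5 for IR against DKO cells and the unchanged count in the other comparisons. The replicate numbers did not pair the libraries (median correlation of same-numbered deviations −0.00111 over 100 pairs, lowest −0.108), and the replicate block gave 5 calls for IR against DKO cells and the unchanged count elsewhere. Of the single-gene values, 29 of 940 crossed the threshold of 0.05 and 0 changed sign. Counts of Mmp8 and Mmp10 limit what could be seen of them, most of all in IR, K1030R and ∆CT cells.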
